A study of Solanum lycopersicum with 4 samples.

Results

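THOM1 and h52 are tomato genes that encode homeodomain transcription factors. They were measured by 3 of the 10101 probe sets analysed on the GeneChip Tomato Genome Array, 2 for THOM1 and 1 for h52. A probe set is a group of short oligonucleotides that together report one transcript. The probe sets were found by their symbols in the platform annotation, and both genes were chosen by their high values in AtJUB1-OX at the mature green stage on these same arrays. That difference is therefore given as a description. RefSeq places THOM1 on chromosome 1 and h52 on chromosome 4 of assembly SLM_r2.1.

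RNA came from fruit pericarp of the cultivar Moneymaker at the mature green stage (MG) and 7 days after breaker (B+7), the stage of visible ripening. The AtJUB1-OX plants carry a 35S:AtJUB1-GFP construct, which drives the Arabidopsis NAC factor JUNGBRUNNEN1, fused to GFP, from a viral promoter active in most tissues. According to the study's text the name AtJUB1-OX stands for a single transgenic line. The wild type (WT) is the untransformed cultivar. There were 4 arrays, 1 for each genotype at each stage, so no test was run and the spread between fruits is unknown. AtJUB1 itself was not analysed on these arrays. The array holds 63 reporter probe sets for foreign sequences common in transgenes, and 2 of these marked the transgenic fruit, the brighter with 12.04 and 12.23 in AtJUB1-OX against 4.53 and 5.06 in WT, at MG and B+7. Which reporter they target is not annotated in the tables used. In both genotypes all 8 measured markers of ripening were at least 1.5-fold higher at B+7, and 3 of 4 measured markers of green tissue were at least 1.5-fold lower. The MG arrays differed in these markers. There 4 of the 8 ripening markers were lower in AtJUB1-OX than in WT by 1.5-fold or more and 2 were higher. Their differences ran from -5.29 (E8) to 2.33 (PG2). The value of PG2 in WT at MG was 3.98, near the background, so the size of its difference is uncertain. Of the 4 green markers, 3 were lower by 1.5-fold or more. At B+7 the ripening markers differed by -0.08 to 0.69. The part of ripening state in the MG differences of THOM1 and h52 was not tested. Pericarp is a mixture of cell types, and a change in RNA per cell cannot be told apart from a change in cell composition.

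Homeodomain proteins bind DNA through a conserved fold of 3 helices, of which the last reads the bases. In the plant HD-Zip class a leucine zipper follows the homeodomain and lets the proteins bind as dimers. Genes of this class act in organ growth, in vascular development and in responses to light, drought and pathogens. The locus Solyc01g090460, taken here as that of THOM1, is annotated as a homeobox-leucine zipper gene by the study. h52 is known in tomato for its part in limiting cell death after infection, where plants with reduced H52 form lesions.

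The locus taken here as that of THOM1 had a particular place in the study. A stretch upstream of it, without an AtJUB1 binding site, served as the negative control for chromatin immunoprecipitation, and its transcript was also measured by qRT-PCR. The primers listed by the study for that locus are shown. The link between this locus and the array's THOM1 probe sets was not checked by sequence. In the forward primer the capitals mark 4 codons that, read in the first frame, match the conserved core of the DNA-reading helix of homeodomains. No sequence of the array's own probes was used here.
THOM1 forward: CAGAACAGAAGGgcaaggactaag
THOM1 reverse: tcgcagcaacgcttcaaatactc

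The brighter THOM1 probe set had a log2 value of 7.37 in AtJUB1-OX at MG, against 5.57 in WT at MG. At B+7 it had 7.79 in AtJUB1-OX and 7.57 in WT. The WT array at MG thus stood alone at the bottom, 1.80 below the next array, while the other arrays lay within neighbouring steps of 0.22 and 0.20. The log2 difference between AtJUB1-OX and WT was 1.80 at MG, or 3.49-fold, and 0.22 at B+7, or 1.17-fold. Of all probe sets, 111 had a larger difference at MG and 1793 had a larger one at B+7.

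THOM1 was dim. Its brighter probe set ranked at percentiles 25.4 and 28.9 of all probe sets in AtJUB1-OX at MG and B+7, and at 14.4 and 26.7 in WT. The reporters give a measure of the signal without a matching transcript, once the 2 that marked the transgenic fruit are set aside, which was done after their values were seen. The other 61 had a 95th percentile of 5.43 over the 4 arrays, and all 63 had one of 5.61. THOM1 in WT at MG, at 5.57, lies between these values, and 2 of the 61 reporters exceeded it on that same array. None of the 61 exceeded THOM1 on any other array. The fold at MG rests on a value near the background. With all values below the 25th percentile (7.34) set to it, the THOM1 difference at MG was 0.04.

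The dimmer THOM1 probe set showed the same order of the 4 arrays. It had 4.39 in AtJUB1-OX and 3.56 in WT at MG, and 5.13 in AtJUB1-OX and 4.92 in WT at B+7. All of these values lie below the 95th percentile of the 61 reporters, of which 24 exceeded it in WT at MG and 7 in AtJUB1-OX at MG. The difference was 0.83 at MG and 0.21 at B+7. The IDs of the probe sets differ in a letter, S for the brighter and A for the dimmer, and which strand each reads was not checked. Among 714 transcript clusters with probe sets of both letters, the S probe set was the brighter in 55.3%, and the gap exceeded that of THOM1 (2.58) in 39 clusters. The suffix of the brighter probe set, _s_at, marks probes shared by more than one transcript, and the share of any other transcript in its signal was not tested.

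h52 had a log2 value of 10.97 in AtJUB1-OX at MG, against 9.25 in WT at MG. At B+7 it had 10.19 in AtJUB1-OX and 9.60 in WT. Both AtJUB1-OX arrays were above both WT arrays, with the AtJUB1-OX array at MG at the top by 0.78, and steps of 0.59 and 0.35 below it. The difference between AtJUB1-OX and WT was 1.72 at MG, or 3.30-fold, and 0.59 at B+7, or 1.51-fold. At MG 120 of all probe sets had a larger difference, and at B+7 347 had. The B+7 value lies next to the 1.5-fold line (0.58 on the log2 scale) and stayed past it under each of 3 other scalings of the arrays.

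h52 lay near the middle of the signal range. Its mean over the arrays was 10.00, where the median over probe sets was 9.70. It ranked at percentiles 69.2 and 57.0 in AtJUB1-OX at MG and B+7, and at 43.7 and 48.2 in WT. It is read by 1 probe set, so no second one is at hand to set beside it.

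**Figure D1:**
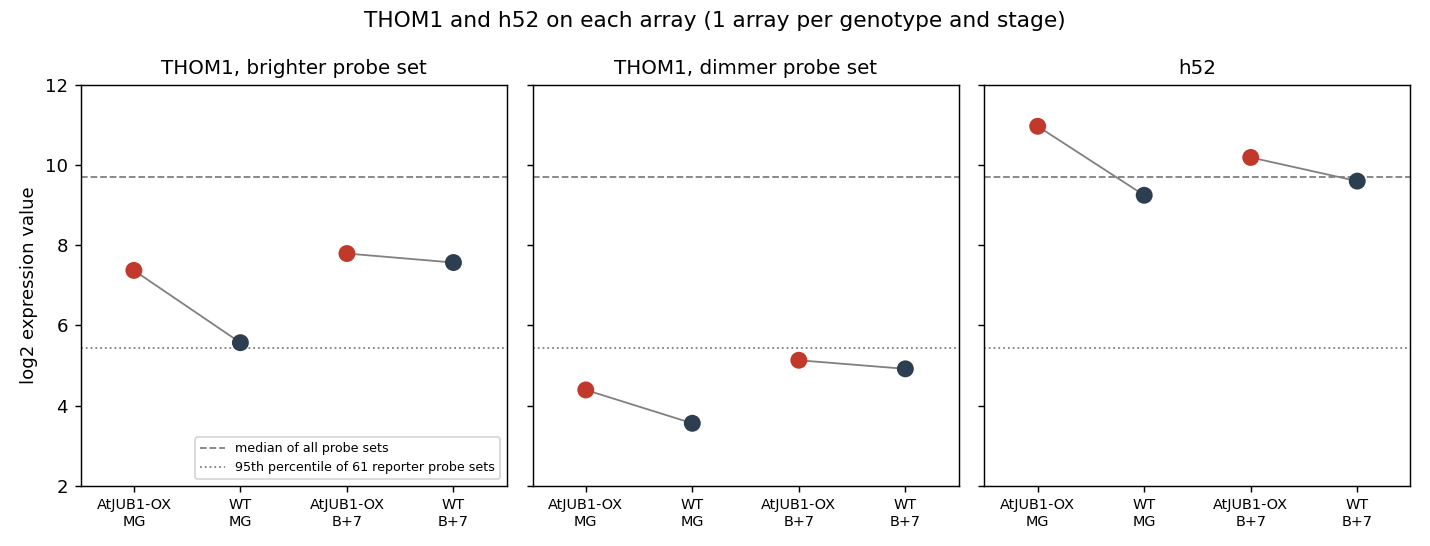
Log2 expression value (vertical axis) of the 3 probe sets on each of the 4 arrays, AtJUB1-OX in red and WT in dark blue, 1 point per array with no error bar because there are no replicates. The dashed line is the median of all probe sets (9.70) and the dotted line the 95th percentile of 61 reporter probe sets (5.43). THOM1 in WT at MG lies at 5.57, just over the dotted line, and h52 in AtJUB1-OX at MG is at 10.97.

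The measure of error at hand is the agreement between probe sets of the same gene. Over 82 genes with 188 probe sets, the pooled SD of the log2 difference between AtJUB1-OX and WT was 0.26 at either stage. It does not hold the spread between fruits. The MG differences chose both genes and are not judged against it. At B+7 the THOM1 difference (0.22) does not exceed this SD, and the h52 difference (0.59) does.

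Signal matters for how common such differences are. At MG 6.67% of all probe sets were higher in AtJUB1-OX by 1.5-fold or more, and 6.74% were lower by as much. At B+7 these shares were 3.53% higher and 6.13% lower. Both genes were past the cut-off at MG and h52 at B+7, but they were chosen on the MG contrast, and nothing is read from their count there. Among 665 probe sets with a mean within 0.5 of that of the brighter THOM1 probe set, 11.3% were at least 1.5-fold higher at MG and 19 had a difference as large as that of THOM1 or larger, itself included. Among 1529 with a mean within 0.5 of that of h52, 7.06% were at least 1.5-fold higher at MG, and 14 reached the difference of h52, itself included. At B+7, 2.62% of these 1529 were at least 1.5-fold higher.

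**Figure D2:**
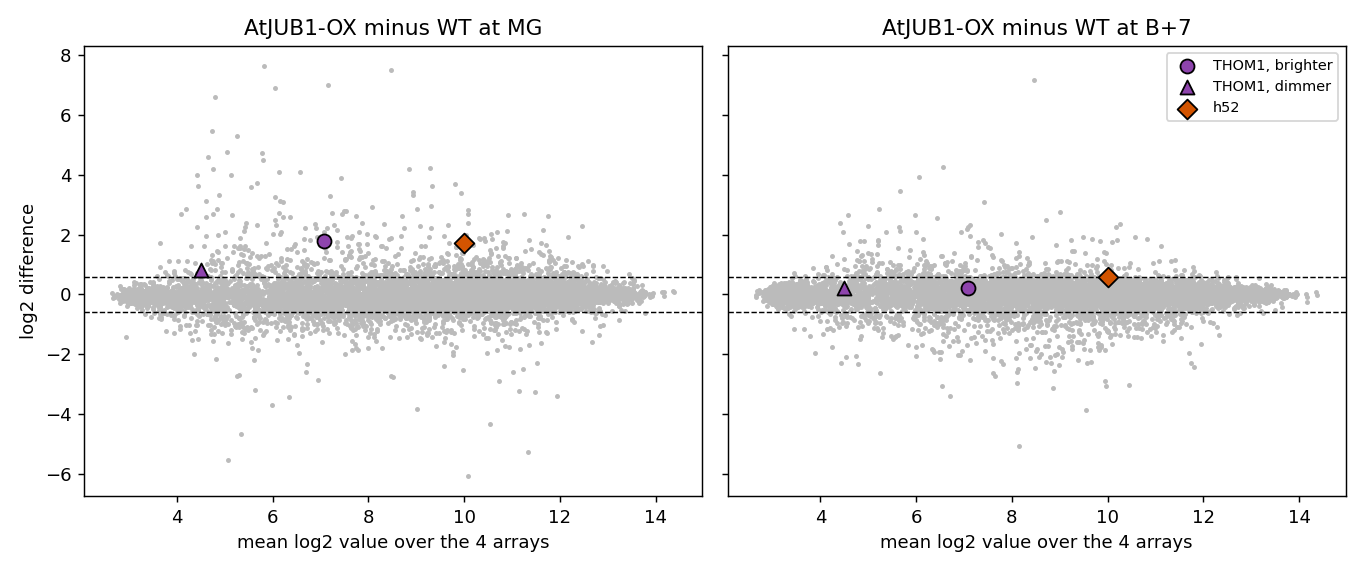
Log2 difference between AtJUB1-OX and WT (vertical axis) against the mean log2 value over the 4 arrays (horizontal axis) for all 10101 probe sets in grey, at MG on the left and at B+7 on the right, with the THOM1 and h52 probe sets marked and dashed lines at 1.5-fold. At MG the brighter THOM1 probe set (1.80) and h52 (1.72) lie above the dense band of points, with 111 and 120 probe sets higher than each, and at B+7 THOM1 (0.22) lies inside the band.

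Control probe sets that bear on RNA quality differed between the arrays at MG, and no direct measure of that quality was at hand. The gap between the 3' and 5' probe sets of 4 control transcripts was larger in AtJUB1-OX than in WT by 0.13 (GAPDH), 0.18 (actin), 0.26 (ubiquitin) and 0.53 (EF1a), whereas at B+7 these values lay between -0.10 and 0.04. At B+7 the 25S ribosomal RNA control was higher in AtJUB1-OX by 1.20. The part of either in the values of THOM1 and h52 was not tested.

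The ripening change of THOM1 was small in AtJUB1-OX and large in WT. The B+7 value of its brighter probe set exceeded the MG value by 0.42 in AtJUB1-OX, or 1.34-fold, and by 2.0 in WT, or 4.00-fold. In AtJUB1-OX 19.1% of all probe sets were past 1.5-fold in this direction and 2741 had a larger change than THOM1. In WT 13.9% were past it and 213 had a larger change. The WT change starts from the value of 5.57 near the background, so its fold and rank are uncertain. With the floor at the 25th percentile it was 0.23, under 1.5-fold. The dimmer probe set gave changes of 0.74 in AtJUB1-OX and 1.36 in WT. The MG values of both changes belong to the contrast on which THOM1 was chosen.

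h52 moved in opposite directions. In AtJUB1-OX it was lower at B+7 than at MG by a log2 change of -0.78, and in WT it was higher by 0.35, which is under 1.5-fold. At least 1.5-fold lower values at B+7 were found for 16.8% of all probe sets in AtJUB1-OX and for 14.2% in WT. The spread of these changes between probe sets of the same gene had an SD of 0.74 in AtJUB1-OX and 0.61 in WT over the 82 genes, and of 0.27 and 0.24 over the 35 of them above the median signal. Since these changes share the MG arrays with the choice of the genes, they are given beside this spread as a description. Spike controls (bioB, bioC and bioD, 21 probe sets) also gave larger values at B+7, with median changes of 0.19 in AtJUB1-OX and 0.21 in WT, and their part was not tested.

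The genotype difference at MG minus that at B+7 was 1.58 for THOM1 and 1.13 for h52. It contains the MG difference on which both genes were chosen, so it is given as a description. For THOM1 the sign turned with the floor at the 25th percentile, which gave -0.19. That floor (7.34) lies just under the AtJUB1-OX value at MG (7.37) and so takes away nearly all of the MG difference. The dimmer probe set gave 0.62. All 4 arrays enter this value once, and with no replicates it could not be tested.

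Of the homeodomain genes listed by symbol or synonym, 11 were measured, THOM1 and h52 among them. At MG THOM1 and h52 exceeded 1.5-fold upwards in AtJUB1-OX and none of the 11 was lower by as much, where all probe sets gave 6.67% and 6.74%. THOM1 and h52 were chosen on this contrast. The differences of the other 9 lay between -0.20 and 0.48 with a median of -0.05, close to the median of all probe sets (-0.06). Among these 9, KN1, T6, TKN3 and WUS lay in the range of the reporter probe sets, where a difference would hardly show at either stage. At B+7 2 of the 11 were at least 1.5-fold higher, h52 and BL3, and none was lower by as much, where all probe sets gave 3.53% and 6.13%. The median of the other 9 was then 0.17, beside 0.004 for all probe sets.

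VAHOX1 is the remaining HD-Zip gene of the list, known from phloem tissue. It had 7.56 in AtJUB1-OX and 7.52 in WT at MG, and 8.37 in AtJUB1-OX and 8.20 in WT at B+7. It thus hardly differed between genotypes at MG, by 0.04, and its B+7 values exceeded those at MG by 0.81 in AtJUB1-OX and 0.68 in WT.

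The knotted-like genes, of which one class is known for keeping meristem cells undifferentiated and for shaping leaves, split by signal. T12 (LeT12), of the other class, was bright, with 11.98 in AtJUB1-OX and 12.18 in WT at MG, and 11.75 in AtJUB1-OX and 11.90 in WT at B+7. KN4 had 9.24 in AtJUB1-OX and 9.37 in WT at MG, and 8.85 in AtJUB1-OX and 8.58 in WT at B+7. Its change of -0.79 in WT was past 1.5-fold, and its genotype differences were not. KN1, T6 (LeT6) and TKN3 had means of 3.05, 3.11 and 3.99, in the range of the reporter probe sets. WUS, a stem cell gene that underlies the locule number locus, lay there too, at 3.72.

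BL2 and BL3 were listed as bell-like genes by their symbols, which was not checked. BL2 had 11.40 in AtJUB1-OX and 11.20 in WT at MG, and 11.96 in AtJUB1-OX and 11.72 in WT at B+7. BL3 had 9.93 in AtJUB1-OX and 9.45 in WT at MG, and 9.71 in AtJUB1-OX and 8.96 in WT at B+7. Its genotype difference was 0.48 at MG and 0.75 at B+7. Unlike THOM1 and h52, which were chosen on the MG contrast, BL3 had a larger difference at the later stage. By signed value BL2, VAHOX1, KN4, T12, TKN3 and T6 share that order, and only KN1 and WUS of the others do not. THOX2, also named a homeobox gene by its symbol, was added after its values were seen and differed by 0.29 at MG and -0.24 at B+7.

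**Figure D3:**
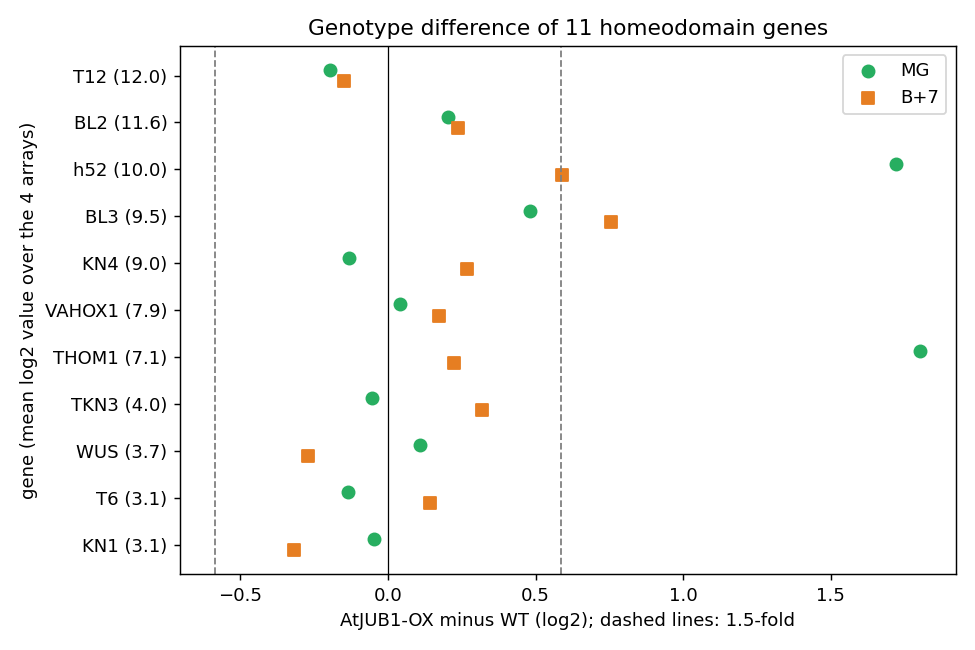
Log2 difference between AtJUB1-OX and WT (horizontal axis) for the 11 listed homeodomain genes at MG (green circles) and B+7 (orange squares), each from 1 array per genotype, ordered by mean log2 value, which stands in brackets. Dashed lines mark 1.5-fold. THOM1 (1.80) and h52 (1.72) at MG and h52 (0.59) and BL3 (0.75) at B+7 lie beyond the right one, and no point lies beyond the left one.

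Named genes with a like pattern over the 4 arrays were ranked by the root mean square distance between log2 values, each centred on its mean, among genes above the median signal. For THOM1 and 471 candidates the nearest was the WRKY transcription factor gene WRKYIId-4, at a distance of 0.28. It had 10.95 in AtJUB1-OX and 9.09 in WT at MG, and 10.79 in AtJUB1-OX and 10.53 in WT at B+7, so it too was lowest in WT at MG. The ethylene receptor gene ETR4 (0.32), the Aux/IAA gene IAA3 (0.38), LOC543701 (0.40) and the acid invertase gene AI (0.41) followed. All 5 were lowest in WT at MG, as the ranking by likeness favours, so this is not a separate result. Their differences between AtJUB1-OX and WT ran from 0.68 for AI to 2.69 for LOC543701 at MG and from -0.47 to 0.27 at B+7.

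For h52 and 470 candidates the nearest was LOC543684, at a distance of 0.28, with 11.24 in AtJUB1-OX and 10.17 in WT at MG, and 10.41 in AtJUB1-OX and 10.11 in WT at B+7. The chitinase gene CHI9 (0.33) was next, with 13.06 in AtJUB1-OX and 10.90 in WT at MG, and 11.34 in AtJUB1-OX and 11.33 in WT at B+7. Like h52, CHI9 was highest in AtJUB1-OX at MG, and its genotype difference at B+7 was 0.01 where h52 had 0.59. adc1 (0.39), NSY (0.41) and PDH (0.43) completed the 5. All 5 were highest in AtJUB1-OX at MG, as the ranking by likeness favours, so this is not a separate result. THOM1 and h52 were 0.72 apart by the same measure. Any gene outside the nearest 5 is farther by the ranking itself. THOM1, with a mean below the median signal, was no candidate for h52.

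**Figure D4:**
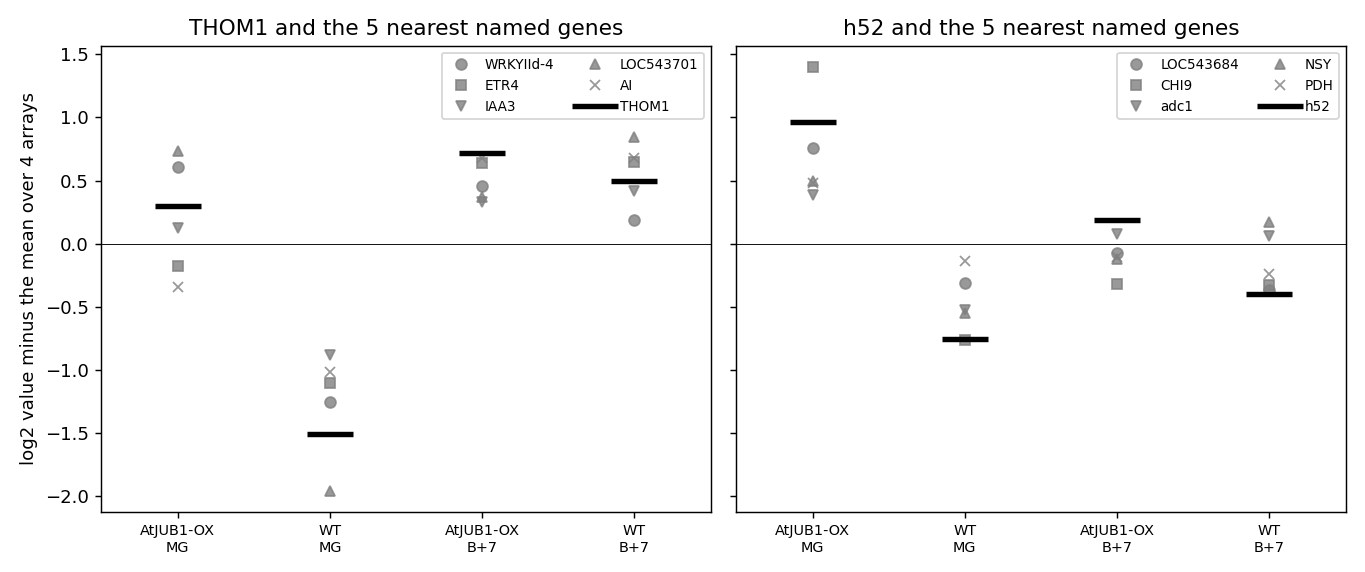
Log2 value minus the gene's mean over the 4 arrays (vertical axis) on each array, for THOM1 with its 5 nearest named genes on the left and h52 with its 5 nearest on the right. Black bars are THOM1 and h52, and grey symbols are the other genes. On the left all symbols are lowest in WT at MG and on the right all are highest in AtJUB1-OX at MG. The genes were picked for like profiles, so this likeness is not a separate result.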

How the data were processed

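Pericarp RNA of AtJUB1-OX and WT fruits at MG and B+7 was hybridized to 4 GeneChip Tomato Genome Arrays. The deposited values are log2 expression, corrected for background, normalized and summed up per probe set by the authors. The submitters' processing notes list GCRMA and RMA, with neither role nor version. After 108 control probe sets were left out of 10209, 10101 remained. The platform annotation of 2007 gives 1 gene for 909 of them (803 genes), and 885 were matched to RefSeq (SLM_r2.1), which served for names and chromosomes. No gene descriptions or promoter sequences were used, so the homeodomain list rests on symbols and synonyms and the planned search for motifs was not run.

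Comparisons are differences of log2 values, AtJUB1-OX minus WT or B+7 minus MG, with the 1.5-fold cut-off of the paper. The brightest probe set stands for a gene. Named are all probe sets of THOM1 and h52, the homeodomain list and the 5 nearest profiles of each gene. Members and lists were chosen with earlier results of these data known. No test was run, since each group has 1 array and the genes were chosen on these values. An additive fit of genotype and stage over the 4 arrays would leave 1 residual degree of freedom, with the interaction taken as error, and was not run. Precision is limited by how few arrays there are. The alternatives were centring on the median, quantile normalization, loess with a span of 0.3, a floor at the 25th percentile, the other probe set or the mean of probe sets, and a 2-fold cut-off. Of 63 reporter probe sets, 2 exceeded their WT values 2-fold or more in AtJUB1-OX at MG and at B+7, and were left out of the background level after this was seen. The counting was tested on simulated data. The tools were R 4.3.3 (limma 3.58.1) and Python 3.11.15 (matplotlib 3.10.9, numpy 2.4.6, pandas 2.3.3).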

Additional observations from a re-analysis of the deposited data

Results flagged for a closer look

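The ripening change of h52 ran in opposite directions in the genotypes, with -0.78 in AtJUB1-OX and 0.35 in WT, so that the change in AtJUB1-OX minus that in WT was -1.13 on the log2 scale. The WT change is under 1.5-fold. The value of -1.13 holds the MG difference on which h52 was chosen, so it is given as a description. With 1 array per genotype and stage the difference was not tested.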

How the results depend on the processing

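Centring each array, quantile normalization and removal of the trend with signal moved every value of THOM1 and h52 by less than the SD between probe sets of a gene, and no value crossed the 1.5-fold line. The floor at the 25th percentile left h52 as it was. For THOM1 it gave 0.0351 in place of 1.80 at MG, 0.23 in place of 2.0 for the ripening change in WT, and -0.19 in place of 1.58 for the genotype difference at MG minus that at B+7, since the floor lifts the value of WT at MG. The dimmer THOM1 probe set gave 0.83 at MG, 1.36 for the ripening change in WT and 0.62 for the difference of the genotype differences, and the mean of both probe sets gave 1.32 at MG and 1.10 for that difference. For the ripening change in AtJUB1-OX the dimmer probe set was past 1.5-fold (0.74), where the brighter was not (0.42). The alternatives for the difference of the genotype differences were chosen after the data were seen. Of the 11 homeodomain genes, 1 passed 1.5-fold at MG with the floor, in place of 2. At 2-fold the count at MG stayed at 2, THOM1 and h52, which were chosen on that contrast. At B+7 it was 0 in place of 2. For the ripening change it was 0 in place of 2 in AtJUB1-OX, and 1 in place of 3 in WT. At 1.5-fold all probe sets gave 19.1% higher and 16.8% lower at B+7 in AtJUB1-OX, and 13.9% and 14.2% in WT. Shares of all probe sets with the floor or at 2-fold are not given, so nothing is read from these counts. No paired analysis was possible because each genotype and stage has 1 array, so a replicate block has nothing to estimate.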
